A study of Mus musculus with 203 samples.

Results

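The baseline difference between conducting airway and lung parenchyma was measured in 23 RNA-seq libraries, 11 of airway and 12 of parenchyma, of a series with 180 other libraries. They were chosen by their labels alone (tissue, phosphate buffered saline or PBS, 3 weeks). All came from female Balb/C mice aged 18 to 20 weeks that received the PBS vehicle intranasally, 5 days per week, and no allergen. The tissues were parted by blunt dissection under a microscope, so each library is bulk RNA of a dissected piece, in which fewer cells of a type and less RNA per cell cannot be told apart. For comparison, 20 libraries of mice given house dust mite extract (HDM) for 3 weeks and 20 of PBS-exposed mice in normal air at 11 weeks (PBS.AIR) were used, each with 10 of airway and 10 of parenchyma from mice of the same sex, strain and labelled age. The labels do not tie an airway library to the parenchyma of the same mouse or say how many mice gave the libraries, so p-values measure the spread between libraries.

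The conducting airways carry air and clear mucus. Their epithelium holds ciliated cells and secretory club cells, and it rests on smooth muscle and connective tissue. Basal stem cells, glands and cartilage belong to the largest airways. The parenchyma exchanges gas across flat alveolar type I cells and a dense capillary bed, while alveolar type II cells make surfactant. Small bronchioles also run through the parenchyma.

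Total counts ranged from 24540569 to 37065393 in airway and from 18756055 to 26961987 in parenchyma. Of 17377 genes tested, 1738 (10.0%) were called higher in airway and 332 (1.91%) higher in parenchyma, a call being an adjusted p under 0.05 (limma-voom) with a log2 fold change (log2FC) of at least 1 in size. All log2FC values are airway less parenchyma. At an adjusted p under 0.05 alone, 4229 genes were higher and 5514 lower in airway, and the median over all genes was -0.05. The median log2FC was 1.66 among genes called higher in airway and -1.17 among genes called higher in parenchyma, and 286 of the former and 0 of the latter reached 3 in size. For 1257 genes (7.23%) every airway library lay above every parenchyma library, and for 338 genes (1.95%) every airway library lay below. Protein coding genes made up 90.3% of the genes called higher in airway and 72.9% of those called higher in parenchyma. Small nuclear and nucleolar RNA genes, summed to 23.4 to 135.2 CPM in airway (median 31.6) and 21.1 to 369 CPM in parenchyma (median 97.8), and their part in the differences was not tested.

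The airway libraries were not alike. On the first principal component of the 500 most variable genes (79.4% of the variance) the parenchyma libraries scored -41.6 to -24.6 and the airway libraries 14.6 to 67.4, a mean difference of 71.2 (2-sided permutation test of 100000 resamples, p = 2.0e-05, the smallest they can give, adjusted p = 4.0e-05). Of the 11 airway libraries 7 lay between 14.6 and 33.2, and X21, X81, X161 and X181 between 58.2 and 67.4. On the second component (5.16%) the tissues differed by 5.29 (permutation p = 0.21). Leaving out these 4 libraries, a choice made after seeing the data, gave 1341 genes higher in airway, 1298 of them among the 1738, and 34 higher in parenchyma, 29 of them among the 332. Most calls toward parenchyma were thus lost without these 4 libraries, and counts of calls without them are given with the gene lists.

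**Figure D1:**
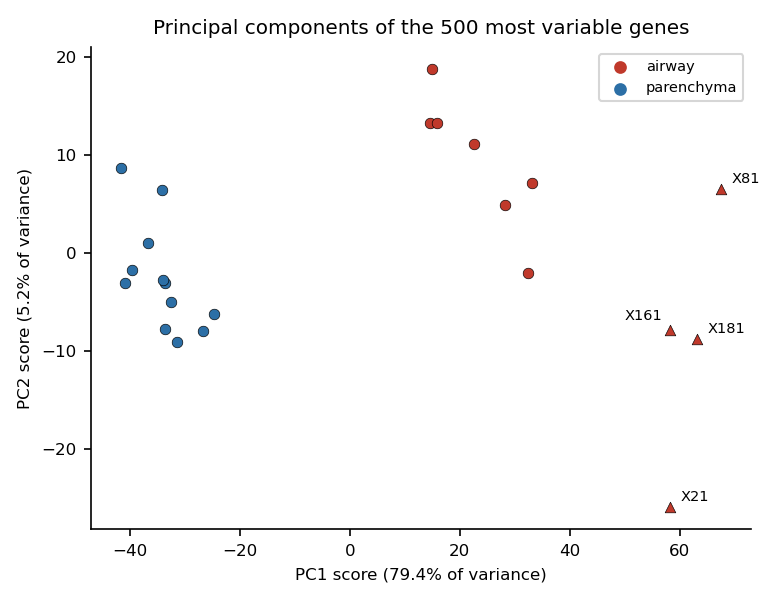
Scores of the 23 PBS libraries of 3 weeks on the first (x axis) and second (y axis) principal component of log2 CPM; each point is a library, and triangles are the airway libraries X21, X81, X161 and X181. The tissues do not overlap on the first component, and the 4 triangles lie at 58.2 or above.

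Marker lists described the content of each dissected piece. Summed CPM, the counts scaled to library size, of 16 alveolar type I genes were 8658 to 12227 in parenchyma and 2222 to 8366 in airway. The groups did not overlap, yet every airway library held these alveolar transcripts, and the lowest were X81 (2222), X161 (2535), X181 (3012) and X21 (4476). The 17 smooth muscle genes summed to 1002 to 1203 CPM in parenchyma and 1257 to 5199 CPM in airway, with the same 4 libraries highest, from 3352 to 5199 CPM. The 31 ciliated cell genes summed to 812 to 1244 CPM in parenchyma and 1704 to 3066 CPM in airway, where the 4 libraries lay among the others. The part of dissection in each gene's difference was not tested.

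**Figure D2:**
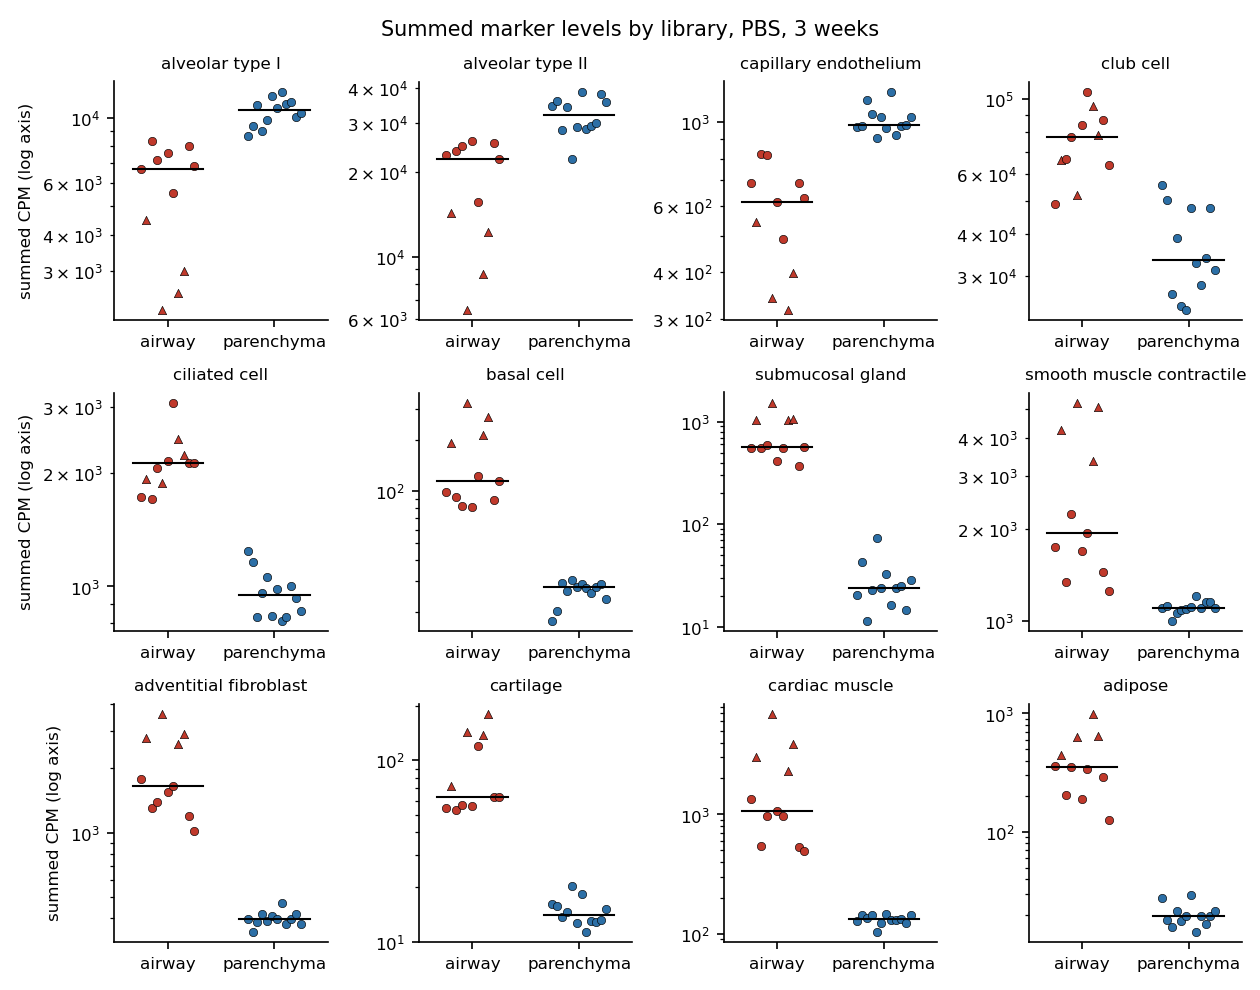
Summed CPM (log axis) of marker lists in each of 11 airway and 12 parenchyma libraries of PBS mice at 3 weeks; black bars are medians and triangles the airway libraries X21, X81, X161 and X181. The triangles are the lowest airway libraries for alveolar type I genes, at 2222 to 4476 CPM, and the highest for smooth muscle, at 3352 to 5199 CPM.

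Motile cilia genes were higher in airway as a group. Of 31 members tested 27 were called higher in airway and 0 in parenchyma, with a median log2FC of 1.57, and in 24 members every airway library was above every parenchyma library. Foxj1, the master regulator of motile ciliogenesis (ENSMUSG00000034227.7, chromosome 11, 116330704 to 116335399, GRCm38), had 97.9 to 227 CPM in airway (median 141.7) and 27.6 to 67.5 CPM in parenchyma (median 40.3). Its groups did not overlap, and its log2FC was 1.76 (SE 0.17, adjusted p = 1.51e-10). The axonemal dynein heavy chain gene Dnah5 had a log2FC of 1.60 (SE 0.18, adjusted p = 2.55e-09), and Tekt1, for a tektin of the ciliary microtubules, 1.63 (SE 0.18, adjusted p = 2.34e-09). The largest values of the list were those of Lrriq1, whose groups overlapped, at 2.07 (SE 0.33, adjusted p = 1.7e-06), and Cfap52, for a cilia and flagella protein, at 1.90 (SE 0.20, adjusted p = 9.94e-10). The members that were not called were Rfx2 (0.72), Rfx3 (0.59), Ccno (0.49) and Tppp3 (0.42), of which Rfx2 and Rfx3 are transcription factors of ciliogenesis. Without the 4 libraries 27 members were called and the median was 1.58.

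Promoters of these and other lists were searched on both strands for the X-box, the motif bound by RFX factors, and for the CArG box (CCWWWWWWGG, W being A or T). The X-box occurred in 7 of 32 promoters of 27 ciliated cell genes (21.9%) and in 1.53% of 32851 promoters (RefSeq, GRCm38.p6, 250 bases before to 50 after each start). Its share was 3.79% of promoters of genes called higher in airway, 1.16% of those called higher in parenchyma, and 0 of 17 alveolar type I promoters. The CArG box occurred in 1 of 15 smooth muscle, 2 of 17 cardiac muscle and 2 of 17 alveolar type I promoters. It was in 0 of 32 ciliated cell promoters and 1.63% of all promoters. The stretches below, from genes with the X-box close before the start, are printed on the strand of the gene with the motif in capitals.
Lrriq1, chr10:103236323-103236371, minus strand: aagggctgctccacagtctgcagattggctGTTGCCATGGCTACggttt
Dnaic2, chr11:114727356-114727418, plus strand: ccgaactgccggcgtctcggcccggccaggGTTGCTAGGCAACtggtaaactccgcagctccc
Hydin, chr8:110266926-110266976, plus strand: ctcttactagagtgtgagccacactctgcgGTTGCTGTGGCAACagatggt
Dnaic1, chr4:41569745-41569793, plus strand: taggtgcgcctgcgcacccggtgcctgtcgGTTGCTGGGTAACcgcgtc
The first motif base lay at -19 from the start site in Lrriq1 and Dnaic1, at -33 in Dnaic2 and at -21 in Hydin. Dnaic1 and Dnaic2, for intermediate chains of the outer dynein arm, had log2FC values of 1.47 and 1.73, and Hydin, for a protein of the central pair of microtubules, 1.69. A match of letters is a description and not a bound site.

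Club cell genes ranged from no difference to some of the largest. Of 14 members 8 were called higher in airway and 0 in parenchyma (median log2FC 1.15), and 8 without the 4 libraries. Scgb1a1, the club cell secretory protein, had 23479 to 74464 CPM in airway (median 47342) and 17868 to 45995 CPM in parenchyma (median 27455). Its groups overlapped, and its log2FC of 0.77 (SE 0.17, adjusted p = 0.000181) missed the fold threshold. Per kilobase of exon its level was 106450 CPM in airway and 62483 CPM in parenchyma, above the level of Sftpc, the surfactant protein C gene, at 18140 CPM per kilobase in parenchyma. Scgb3a1, a secretoglobin of the larger airways, had 1579.5 to 4662 CPM in airway (median 2756) and 83.6 to 464 CPM in parenchyma (median 205), with no overlap and a log2FC of 3.72 (SE 0.31, adjusted p = 6.66e-12). Bpifa1, for a secreted antimicrobial protein of the upper airways, had 3494 to 12571 CPM in airway (median 5457) and 32.5 to 370.3 CPM in parenchyma (median 110.3), a log2FC of 5.76 (SE 0.60, adjusted p = 5.72e-10). Its relative Bpifb1 had 4.87 (SE 0.32, adjusted p = 1.01e-14), Scgb3a2 1.75 and the cytochrome P450 gene Cyp2f2 1.03, while Upk3a, a marker of a club cell subset, had -0.12 and was not called.

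Most mucus, basal and gland genes that were tested were called higher in airway. Of 9 mucus cell genes 8 were called higher in airway (median log2FC 2.59), among them Agr2, needed for mucin folding, at 3.70 (SE 0.51, adjusted p = 9.52e-08). The gel-forming mucin gene Muc5ac had 4.19 to 31.04 CPM in airway (median 7.74) and 0.607 to 10.5 CPM in parenchyma (median 1.32), with overlap, and a log2FC of 2.59 (SE 0.77, adjusted p = 0.0039). Of 11 basal cell genes 8 were called (median 3.69). Krt5, the keratin of basal cells, had 10.3 to 65.1 CPM in airway (median 20.7) and 0 to 0.879 CPM in parenchyma (median 0.263), a log2FC of 6.39 (SE 1.204, adjusted p = 2.06e-05). Trp63, the transcription factor that maintains basal cells, had 4.68 to 20.01 CPM in airway (median 8.41) and 0.319 to 1.05 CPM in parenchyma (median 0.767), a log2FC of 3.69 (SE 0.50, adjusted p = 7.42e-08). In both genes all airway libraries lay above all parenchyma libraries. Ltf, for the iron-binding protein lactoferrin (ENSMUSG00000032496.3, chromosome 9, 111019271 to 111042767, GRCm38), had 362 to 1455 CPM in airway (median 560.4) and 10.9 to 72.4 CPM in parenchyma (median 23.5). It had the smallest adjusted p of the genes higher in airway, with a log2FC of 4.77 (SE 0.29, adjusted p = 7.6e-16). Dmbt1, another secreted mucosal protein gene, had 5.45 (SE 1.295, adjusted p = 0.000445). Of 7 gland genes 3 passed the filter on low counts, and Ltf and Dmbt1 were called. The calls without the 4 libraries were 7 mucus, 7 basal and 2 gland genes.

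Markers of rarer epithelial types were tested as well. Of 10 neuroendocrine genes tested 1 was called, Uchl1 at 1.49 (SE 0.33, adjusted p = 0.000219), and Calca, for the peptide CGRP, had -0.02. Of 5 tuft cell and ionocyte genes tested 3 were called, led by the taste transduction genes Gnat3 (3.69) and Trpm5 (1.93), with medians of 0.389 and 1.04 CPM in airway. Of 8 squamous epithelium genes tested 4 were called, led by the desmosomal cadherin gene Dsc3 (4.12), which reached 19.6 CPM in X81 and 11.2 CPM in X161, and Calml3 (3.60). Leaving out the 4 libraries gave 1 neuroendocrine, 1 tuft cell and ionocyte and 4 squamous calls, and Gnat3 then no longer passed the filter. Krt13, a keratin of squamous mucosa, stayed below the filter with at most 12 counts in an airway library.

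**Figure D3:**
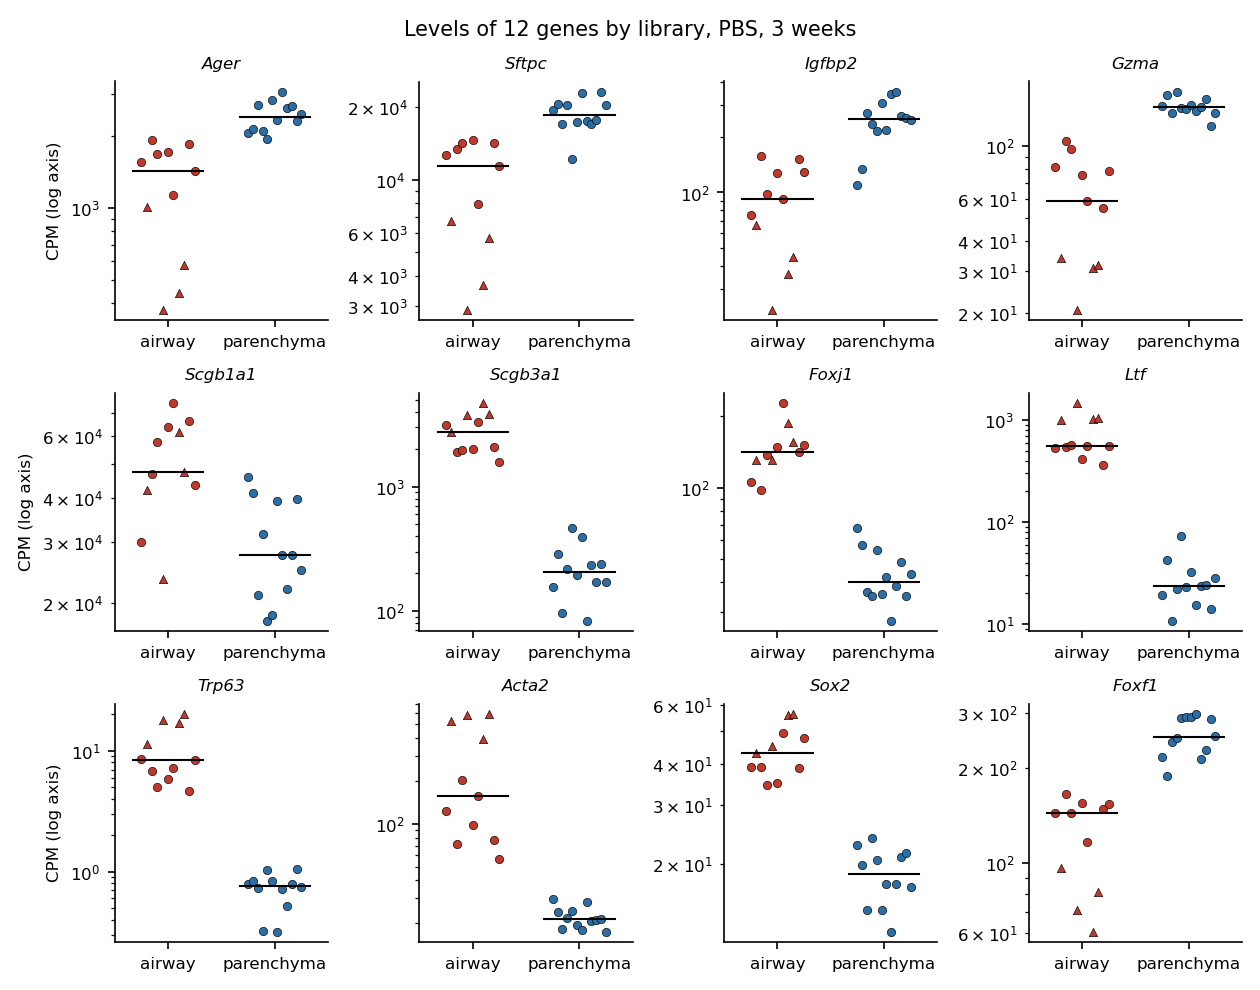
CPM (log axis) of 12 genes in each of 11 airway and 12 parenchyma libraries of PBS mice at 3 weeks; black bars are medians and triangles the airway libraries X21, X81, X161 and X181. Scgb1a1 and Sftpc overlap between tissues, while Scgb3a1, Foxj1, Ltf, Trp63, Acta2 and Sox2 are above every parenchyma library in all 11 airway libraries.

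Contractile genes were higher in airway. Of 17 smooth muscle genes 11 were called (median log2FC 1.83), and 10 without the 4 libraries (median 1.13). Acta2, smooth muscle actin, had 56.5 to 589 CPM in airway (median 157.4) and 17.5 to 29.7 CPM in parenchyma (median 21.4). All airway libraries were above all parenchyma libraries, with X181 (589), X81 (585), X21 (533) and X161 (396) the highest, and the log2FC was 3.08 (SE 0.35, adjusted p = 2.74e-09), or 2.29 (adjusted p = 3.09e-08) without them. The myosin heavy chain gene Myh11 had 2.99 (SE 0.40, adjusted p = 7.26e-08), calponin, Cnn1, 4.39 (SE 0.68, adjusted p = 8.73e-07) and the enteric actin gene Actg2 3.48 (SE 0.63, adjusted p = 1.25e-05). Mylk, the myosin light chain kinase gene, had 0.01 and Csrp1 0.19, and neither was called.

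Receptors that set airway tone were divided. Of 13 tested 4 were called higher in airway, among them the muscarinic receptor gene Chrm2 at 2.21 (SE 0.38, adjusted p = 5.66e-06) and the substance P receptor gene Tacr1 at 3.08 (SE 0.37, adjusted p = 6.66e-09), and 2 without the 4 libraries. Chrm3, for the muscarinic receptor that drives contraction, had 4.53 to 8.98 CPM in airway (median 5.84) and 4.88 to 8.10 CPM in parenchyma (median 5.81), and its groups overlapped (adjusted p = 0.991).

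Cartilage genes were higher in airway. Of 17 listed genes 12 were tested and 10 called (median log2FC 3.06), and 6 were called without the 4 libraries, where Col2a1 no longer passed the filter. Acan, the main cartilage proteoglycan gene, was at 0 in all 12 parenchyma libraries and at 0 to 14.4 CPM in airway (median 0.636), with an airway mean at least 23.2-fold higher against a floor of 3 counts per library. Cnmd, for the cartilage protein chondromodulin, was also at 0 in parenchyma and at 0.120 to 5.27 CPM in airway, at least 11.1-fold higher. Col2a1, the cartilage collagen gene, had 3.13 (SE 0.86, adjusted p = 0.00199) with overlap.

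All 10 adventitial fibroblast genes were called higher in airway, and all 10 without the 4 libraries (medians 2.37 and 1.97). Dcn, for the matrix proteoglycan decorin, had 427 to 1796 CPM in airway (median 727) and 63.6 to 102.3 CPM in parenchyma (median 82.4), a log2FC of 3.33 (SE 0.28, adjusted p = 7.55e-12). Pi16, a marker of adventitial progenitors, had 3.17 (SE 0.31, adjusted p = 1.05e-10) and Scara5 3.51 (SE 0.35, adjusted p = 1.93e-10). Of 35 genes of the interstitial and elastic matrix 8 were called higher in airway, led by Lum (2.90) and Cilp (2.61), and 1, Col12a1 (-1.02), higher in parenchyma (list median 0.29), against 5 and 0 without the 4 libraries. Of 20 basement membrane genes Col15a1 (1.95) and Lamc3 (1.32) were called (median 0.04), a share equal to the 10.0% of all genes, and 1 without the 4 libraries. Among 11 pericyte genes 2 were higher and 7 lower in airway at an adjusted p under 0.05 (limma, list median -0.50). Called higher in airway were Abcc9 (2.15) and Kcnj8 (1.10), for subunits of an ATP-sensitive potassium channel. Higd1b (-1.21) and Trpc6 (-1.18) were called higher in parenchyma, and these calls fell to 1 and 0 without the 4 libraries. Of 7 mesothelial genes tested only Msln was called, at 1.10 (SE 0.27, adjusted p = 0.00053), or 0.83 (adjusted p = 0.0187) and uncalled without the 4 libraries, and the others had values from -0.80 to -0.32.

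Transcripts of tissues next to the airway gave many of the largest values. Of 15 cardiac muscle genes 13 were called higher in airway (median log2FC 4.37), and 13 without the 4 libraries (median 3.63). Nppa, the atrial natriuretic peptide gene, had 10.9 to 553 CPM in airway (median 24.4) and 0 to 1.11 CPM in parenchyma (median 0.0496). X81 was highest (553), followed by X181 (170.4), X161 (148.7) and X21 (84.8), all airway libraries were above all parenchyma libraries, and the log2FC was 8.87 (SE 2.60, adjusted p = 0.00373). Myh6, the atrial myosin heavy chain gene, had 75.2 to 1190.1 CPM in airway (median 170.9) and 10.6 to 16.8 CPM in parenchyma (median 15.2) and a log2FC of 3.98 (SE 0.47, adjusted p = 5.72e-09). Summed over the list, the level was 496 to 6881 CPM in airway and 104.7 to 148.2 CPM in parenchyma. In mice, cardiac muscle also sheathes the pulmonary veins, and vein and heart cannot be told apart here. The part of these tissues in other differences was not tested.

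All 10 adipose genes were called higher in airway (median log2FC 4.997), and 9 without the 4 libraries. Adipoq, for the fat cell hormone adiponectin, had 11.6 to 106.8 CPM in airway (median 39.01) and 0.110 to 0.919 CPM in parenchyma (median 0.685), a log2FC of 6.25 (SE 1.02, adjusted p = 2.07e-06). Car3, a carbonic anhydrase gene of fat, had 6.10 (SE 0.74, adjusted p = 9.7e-09), and Ucp1, for the uncoupling protein of brown fat, 4.61. Of 9 skeletal muscle genes tested 4 were called, led by Ckm (5.90) and Myl1 (5.43). Summed over this list, X81 (233.5 CPM), X181 (151.4), X21 (130.8) and X161 (88.9) were the highest airway libraries. The cardiac list had the same order, at 6881, 3856, 3025 and 2315 CPM. Whether these calls are separate from the cardiac muscle content was not tested. Acta1, skeletal actin, was called at 4.57 (SE 0.98, adjusted p = 0.000124), although its highest value (28.9 CPM) was in parenchyma library X62, where the list summed to 171.1 CPM against 5.41 to 10.01 CPM in the other parenchyma libraries, and the call was lost with edgeR and DESeq2. Of 7 Schwann cell genes 3 were called, among them Cdh19 (4.45) and S100b (2.37), of 3 autonomic neuron genes Prph (1.49 (SE 0.54, adjusted p = 0.0171)), and of 4 thyroid genes Tshr (2.29) and Dio1 (2.25), while thyroglobulin, Tg, had -0.09 (SE 0.23, adjusted p = 0.763). Calls without the 4 libraries were 4 of skeletal muscle, 2 of Schwann cells, 0 of autonomic neurons and 1 of thyroid, where Tshr no longer passed the filter and Prph had 1.01 (adjusted p = 0.167). Of 4 thymus genes tested 0 were called (median -0.15), and Rag1, below the filter, reached 80 counts in 1 parenchyma library and at most 17 in airway.

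**Figure D4:**
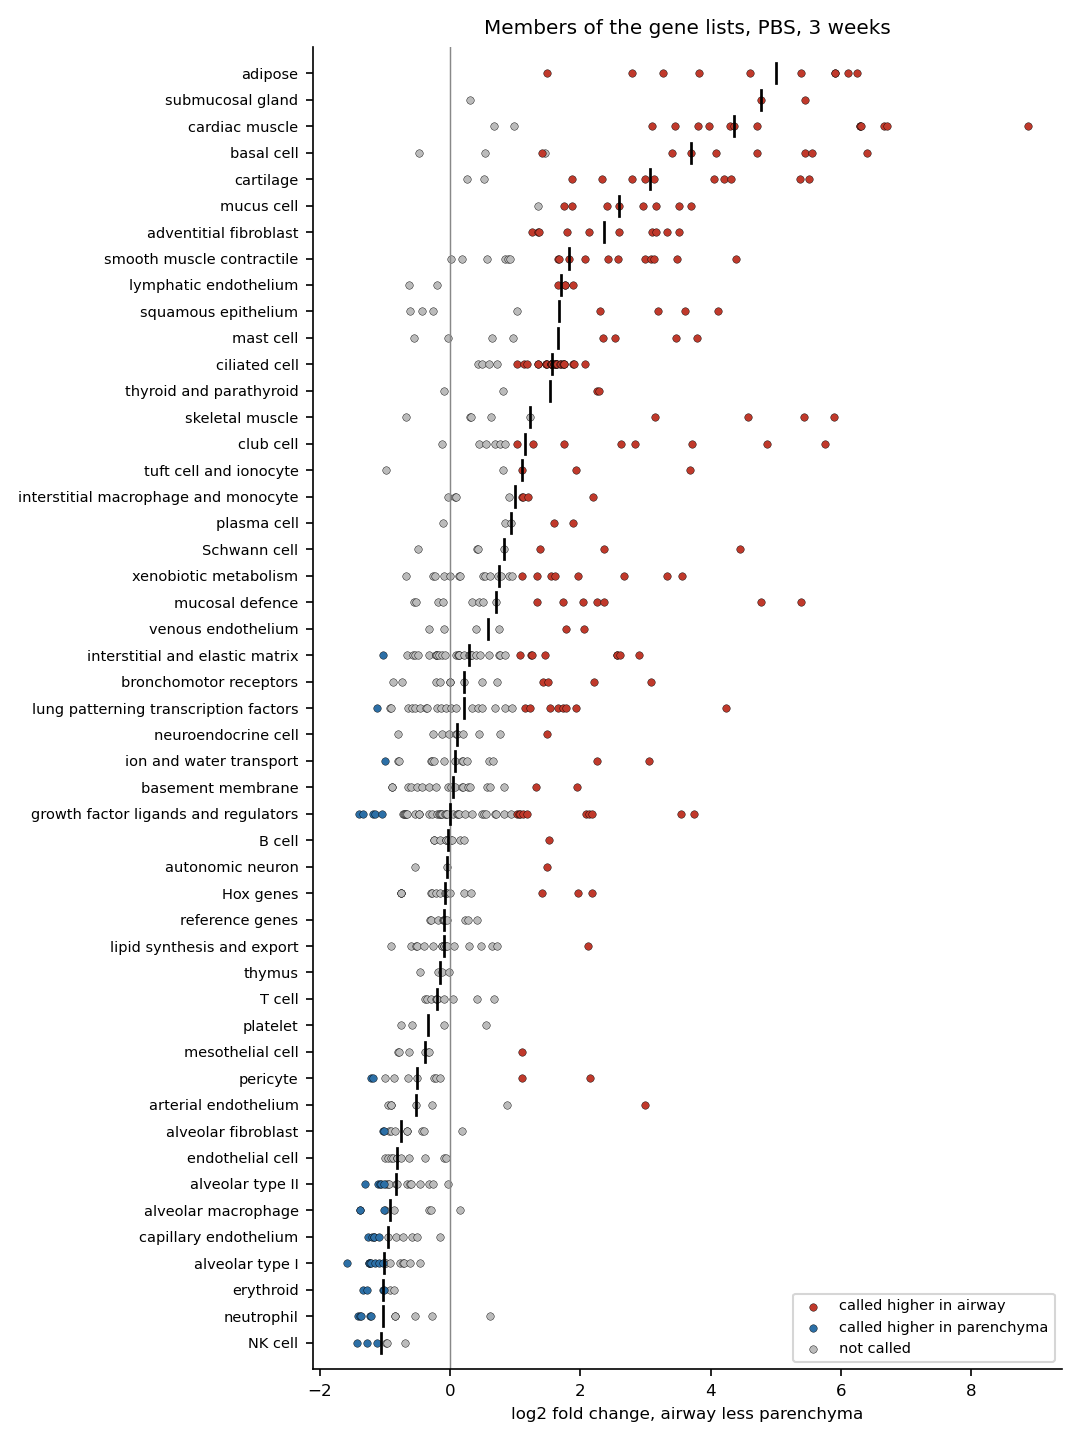
Log2 fold change of airway less parenchyma (x axis) for the tested members of each gene list (rows); points are genes, coloured by call, and black bars are list medians. Adipose (4.997) and cardiac muscle (4.37) have medians far toward airway, and NK cell (-1.06) and neutrophil (-1.03) genes toward parenchyma.

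Alveolar genes were higher in parenchyma, with values near the fold threshold. Of 16 alveolar type I genes 8 were called higher in parenchyma and 0 in airway (median log2FC -1.01). Ager, the receptor gene that marks type I cells (ENSMUSG00000015452.10, chromosome 17, 34597862 to 34600936, GRCm38), had 374 to 1914 CPM in airway (median 1421) and 1939 to 3037 CPM in parenchyma (median 2406). The groups did not overlap, and the log2FC was -1.15 (SE 0.26, adjusted p = 0.000219), or -0.56 (adjusted p = 0.056) without the 4 libraries. Its call was also lost with edgeR, with DESeq2, with quality weights and without X81 alone. Igfbp2, an insulin-like growth factor binding protein gene, had the largest value of the list, with 23.1 to 156.7 CPM in airway (median 91.8) and 109.5 to 349 CPM in parenchyma (median 250.97) and a log2FC of -1.58 (SE 0.26, adjusted p = 3.2e-06), or -0.98 without the 4 libraries. Hopx, a type I cell factor, did not overlap but missed the fold threshold (adjusted p = 1.39e-06).

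Of 17 alveolar type II genes 5 were called higher in parenchyma (median log2FC -0.83). Sftpc had 2901 to 14562 CPM in airway (median 11374) and 12172 to 22938 CPM in parenchyma (median 18573). Its groups overlapped, and its log2FC was -1.10 (SE 0.25, adjusted p = 0.000315), or -0.54 (adjusted p = 0.072) without the 4 libraries, and the call was lost too without X81 or X161 alone. S100g, for a calcium-binding protein, had -1.302 (SE 0.23, adjusted p = 5.74e-06) with no overlap, and the surfactant gene Sftpb -0.59 (SE 0.22, adjusted p = 0.0196), below the fold threshold. Without the 4 libraries 0 type I and 0 type II genes were called, with medians of -0.50 and -0.41.

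Capillary, alveolar fibroblast and natural killer (NK) cell genes also had negative medians. Of 11 capillary genes 5 were called higher in parenchyma (median log2FC -0.96). Gpihbp1, which anchors lipoprotein lipase on capillaries, had 40.5 to 175.9 CPM in airway (median 120.5) and 171.3 to 257 CPM in parenchyma (median 212), with overlap and a log2FC of -1.17 (SE 0.17, adjusted p = 4.07e-07). Adgrl3 (-1.25) and the apelin receptor gene Aplnr (-1.19) had larger values. Of 11 general endothelial genes 0 were called, but 9 were lower in airway at an adjusted p under 0.05 (limma, median -0.81). Pecam1, shared by all vessels, was not among the 9, at -0.09 (SE 0.09, adjusted p = 0.434). At 11 weeks 8 genes of this list were called higher in parenchyma. Of 10 alveolar fibroblast genes Slc7a10 (-1.03) and Wnt2 (-1.01) were called, and both were lost with edgeR and DESeq2. Of 6 NK cell genes 3 were called, Klre1 (-1.27), Ncr1 (-1.12) and the granzyme gene Gzma. Gzma had 20.7 to 105.05 CPM in airway (median 58.8) and 121.1 to 166.9 CPM in parenchyma (median 144.5), with no overlap and a log2FC of -1.43 (SE 0.20, adjusted p = 1.97e-07). None of these lists had a call without the 4 libraries, and the medians were -0.53 for capillary, -0.43 for alveolar fibroblast and -0.68 for NK cell genes.

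Lymphatic genes were mostly called higher in airway, and arterial genes were divided. Of 6 lymphatic endothelial genes 4 were called higher in airway (median log2FC 1.71), including the lymphatic regulator Prox1 at 1.77 (SE 0.27, adjusted p = 8.32e-07) and the chemokine gene Ccl21a at 1.88 (SE 0.26, adjusted p = 9.61e-08), and 4 without the 4 libraries. Of 6 venous genes Ackr1 (2.05) and the P-selectin gene Selp (1.78) were called (median 0.58), and 2 without the 4 libraries. Of 7 arterial genes 5 were lower and 2 higher in airway at an adjusted p under 0.05 (limma, list median -0.52), and the one past the fold threshold was the WNT antagonist gene Dkk2, higher in airway at 2.99 (SE 0.31, adjusted p = 4.69e-10) and called also without the 4 libraries. At 11 weeks 1 arterial gene was called higher in airway and 3 higher in parenchyma (median -0.86). The arterial connexin gene Gja5 had -0.27 (SE 0.10, adjusted p = 0.0176), and Slc6a2, of the venous list, -0.32 (SE 0.17, adjusted p = 0.112), and neither was called.

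Blood and immune markers were divided between the tissues. Of 6 erythroid genes 4 were called higher in parenchyma, and Hbb-bs, a beta globin gene, had 1601 to 6624 CPM in airway (median 4196) and 5086 to 14278 CPM in parenchyma (median 9257), with overlap and a log2FC of -1.27 (SE 0.24, adjusted p = 2.3e-05). Of 10 neutrophil genes 5 were called higher in parenchyma. S100a9, for a calprotectin subunit, had 30.04 to 174.8 CPM in airway (median 108.1) and 175.4 to 347 CPM in parenchyma (median 234), with no overlap and a log2FC of -1.22 (SE 0.21, adjusted p = 3.79e-06). Of 8 alveolar macrophage genes 3 were called higher in parenchyma, Siglecf (-1.38), Ear1 (-1.38) and Atp6v0d2 (-1.01). In these 3 lists 0 genes were called without the 4 libraries. Toward airway, 4 of 8 interstitial macrophage and monocyte genes were called, the folate receptor gene Folr2 at 2.20 (SE 0.37, adjusted p = 3.2e-06) and the complement genes C1qa (1.10), C1qb (1.196) and C1qc (1.12), and 1 without the 4 libraries. Of 8 mast cell genes 4 were called, with the tryptase genes Tpsb2 at 3.79 (SE 0.73, adjusted p = 2.83e-05) and Tpsab1 at 3.47, and 4 without the 4 libraries.

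The antibody genes Ighm and Jchain were highest in the 4 libraries that stood apart. Of 11 B cell genes only Ighm, the IgM heavy chain gene, was called, with 72.97 to 749 CPM in airway (median 252) and 65.9 to 126.6 CPM in parenchyma (median 97.3) and a log2FC of 1.52 (SE 0.28, adjusted p = 1.35e-05). X181 (749), X81 (746), X21 (736) and X161 (731) were the highest, the next airway library, X141, had 298 CPM, and without the 4 the value was 0.74 (adjusted p = 0.00325). Of 5 plasma cell genes Jchain (1.89) and Igha (1.60) were called, and both also without the 4 libraries. Jchain, for the chain that joins antibody polymers, had 3973 CPM in X21, 1164 in X181, 838 in X161 and 479 in X81, and 129.2 to 397 CPM in the other 7 airway libraries. Of 10 T cell genes 0 were called (median -0.20) and of 4 platelet genes 0 (median -0.34).

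Transcription factors of lung development differed in both directions. Sox2, the factor of proximal airway epithelium, had 34.4 to 56.2 CPM in airway (median 43.2) and 12.6 to 24.03 CPM in parenchyma (median 18.7), with no overlap and a log2FC of 1.23 (SE 0.18, adjusted p = 2.87e-07). Foxf1, a mesenchymal and endothelial factor of the distal lung, had 60.7 to 166.1 CPM in airway (median 144.2) and 189.8 to 297 CPM in parenchyma (median 252), with no overlap and a log2FC of -1.12 (SE 0.15, adjusted p = 4.41e-08), or -0.74 without the 4 libraries. Of 28 such factors tested 8 were called higher in airway and Foxf1 higher in parenchyma (median 0.22), against 7 and 0 without the 4 libraries. Isl1 (4.24) and Foxl1 (1.93) had the largest values toward airway, at medians of 0.711 and 1.38 CPM there. Nkx2-1, which specifies lung epithelium, had -0.58 (SE 0.12, adjusted p = 0.000103), and Tbx4, of lung mesenchyme, -0.53 (SE 0.09, adjusted p = 9.34e-06), both below the fold threshold. Of 16 Hox genes tested, which give positional identity, the 3 called were Hoxd9 (2.18 (SE 0.36, adjusted p = 2.53e-06)), Hoxd8 (1.97 (SE 0.38, adjusted p = 2.96e-05)) and Hoxd4 (1.41), all higher in airway, and 2 were called without the 4 libraries. Hoxa5, which patterns lung and trachea, had -0.74 (SE 0.12, adjusted p = 1.06e-06) and Hoxb5 -0.74 (SE 0.13, adjusted p = 4.6e-06), both below the fold threshold.

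Secreted signals were called in both tissues. Of 46 growth factor and regulator genes tested, 10 were called higher in airway and 5 higher in parenchyma. The WNT ligand gene Wnt7a had 2.05 to 19.2 CPM in airway (median 11.52) and 13.2 to 31.01 CPM in parenchyma (median 21.04), with overlap and a log2FC of -1.40 (SE 0.26, adjusted p = 1.71e-05), while Wnt7b had 2.08 and Wnt4 1.05. Wnt16 (3.74) and Grem1, for a BMP antagonist (3.55 (SE 0.73, adjusted p = 7.59e-05)), had the largest values toward airway. The members higher in parenchyma were Wnt7a, the neurotrophic factor genes Bdnf (-1.33) and Gdnf (-1.15), Wnt3a (-1.18) and Fgf18 (-1.04), and without the 4 libraries 0 were called there and 5 in airway. Wnt5a had 0.34 (SE 0.09, adjusted p = 0.00158), Shh -0.47 (SE 0.19, adjusted p = 0.028) and Bmp4 -0.19 (SE 0.08, adjusted p = 0.0462), and none was called.

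Xenobiotic metabolism and mucosal defence genes were called mostly toward airway, while ion transport and lipid genes were divided. Of 22 xenobiotic metabolism genes 8 were called higher in airway (median log2FC 0.76), and 8 without the 4 libraries. The cytochrome P450 gene Cyp2a5 had 552 to 1624 CPM in airway (median 731) and 37.4 to 120.2 CPM in parenchyma (median 71.3), a log2FC of 3.56 (SE 0.40, adjusted p = 1.82e-09), and the alcohol dehydrogenase gene Adh7 had 3.32 (SE 0.39, adjusted p = 5.08e-09). Of 15 mucosal defence genes 7 were called, and 5 without the 4 libraries. The antibacterial lectin gene Reg3g had 282 to 1555 CPM in airway (median 542) and 6.07 to 114.7 CPM in parenchyma (median 17.5), a log2FC of 4.77 (SE 0.38, adjusted p = 1.01e-12), and the beta defensin gene Defb1 5.39 (SE 0.64, adjusted p = 7.22e-09), while Lcn2 (0.51) and Slpi (0.33) were not called. Of 15 ion and water transport genes 6 were higher and 5 lower in airway at an adjusted p under 0.05 (limma, median 0.09). The water channel gene Aqp4 (2.26 (SE 0.27, adjusted p = 6.34e-09)) and Kcnma1 (3.06) were called higher in airway, where 10.0% of all genes were. Slc26a9, an anion transporter gene, was called higher in parenchyma at -1.002, a call lost with edgeR, with DESeq2 and without the 4 libraries. Cftr, the chloride channel gene mutated in cystic fibrosis, had -0.78 (SE 0.17, adjusted p = 0.000216) and was not called. Of 18 lipid genes 5 were higher and 6 lower in airway at an adjusted p under 0.05 (limma, median -0.09). Only Dgat2, for triglyceride synthesis, was called (2.12 (SE 0.26, adjusted p = 9.93e-09)), a share under that of all genes. Of 11 reference genes 0 were called (median -0.09).

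Among genes with no overlap and at least 5 CPM in the higher tissue, most of the 12 largest values toward airway belonged to genes of striated muscle. They were led by Nppa and the myoglobin gene Mb (7.16 (SE 1.27, adjusted p = 8.16e-06)), followed by Kcnj3 (7.02), Eef1a2 (6.97) and Xirp2 (6.80), with Pck1 (6.55), of gluconeogenesis, and the sulfotransferase gene Sult1b1 (6.48) among them. Toward parenchyma Wnt10b was first, with 2.21 to 15.2 CPM in airway (median 9.95) and 15.4 to 31.6 CPM in parenchyma (median 20.8) and a log2FC of -1.66 (SE 0.22, adjusted p = 5.97e-08). Gzma, the type I cell gene Scel (-1.42 (SE 0.24, adjusted p = 3.09e-06)) and Bdnf (-1.33 (SE 0.17, adjusted p = 2.49e-08)) followed. Vegfa, for an angiogenic factor made by type I cells, had 156.4 to 672 CPM in airway (median 488) and 682 to 1149 CPM in parenchyma (median 929), a log2FC of -1.204 (SE 0.21, adjusted p = 4.78e-06). Without the 4 libraries all 12 of the parenchyma genes were under 1 in size, from -0.93 to -0.67. The smallest adjusted p-values toward parenchyma belonged to small differences, such as Rbm18 at -0.46 (SE 0.04, adjusted p = 7.06e-11) and Prkch, a protein kinase C gene, at -0.92 (SE 0.09, adjusted p = 1.51e-10), and those toward airway to Ltf, Bpifb1, Golm1 (1.07), Tspan1 (1.98) and Aoc1 (1.95).

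The same comparison was made in other mice at 11 weeks. There 2131 of 17201 genes (12.4%) were called higher in airway and 492 (2.86%) higher in parenchyma. Of the genes called higher in airway at 3 weeks 1517 were called again (87.3% of the 3 week and 71.2% of the 11 week calls), and 1676 of 1681 tested at both times had the same sign. Of those higher in parenchyma 59.04% were called again, which made up 39.8% of the 11 week calls, and 308 of 319 had the same sign. For 0 genes were the calls opposite. Across 16979 genes tested at both times Pearson's r of the log2FC values was 0.93, a description across genes, which are not independent replicates.

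**Figure D5:**
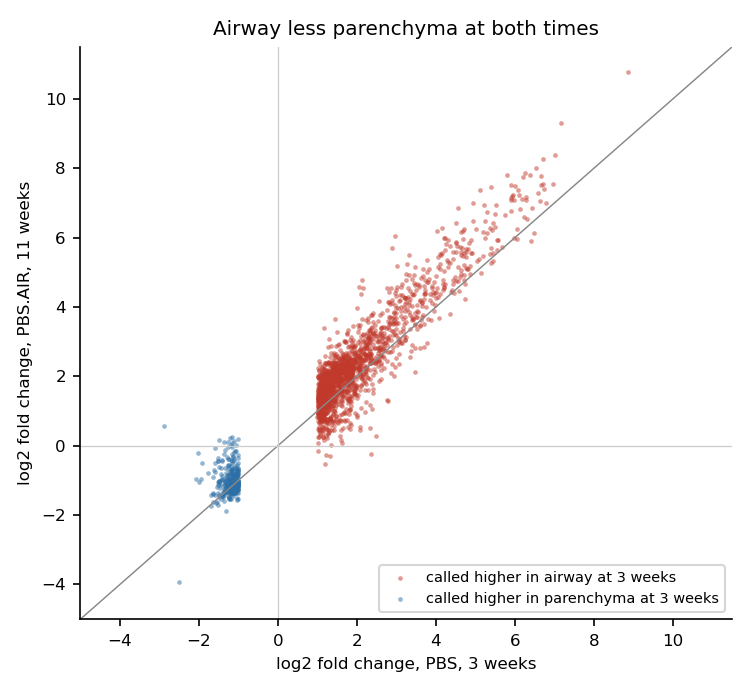
Log2 fold change of airway less parenchyma in PBS mice at 3 weeks (x axis) and in PBS.AIR mice at 11 weeks (y axis) for genes called at 3 weeks and tested at both times, coloured by the tissue in which they were called higher. Of the genes higher in airway 1676 of 1681 lie above 0 at 11 weeks, and of those higher in parenchyma 308 of 319 lie below 0.

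The compartment difference in PBS at 3 weeks was set against that in PBS.AIR at 11 weeks. Time, the normal air set-up and the set of mice cannot be told apart in this contrast, called the difference between times. It passed an adjusted p under 0.05 for 1590 genes (9.24%). Of the genes called higher in airway at 3 weeks 7.02% passed, and only 18 of these had the larger difference at 3 weeks. The rest, which were most of them, had the larger difference at 11 weeks. Of the genes called higher in parenchyma 1 passed. Without the 4 libraries 2077 genes passed, and the share of the 2070 called genes that passed went from 5.94% to 9.86%. No PBS.AIR library was left out in that fit, although Nppa also spread widely in PBS.AIR airway (137.8 ± 143.7 CPM, SD, n = 10). Cdhr3, a cadherin gene of ciliated cells, had 91.8 ± 21.3 CPM in airway and 30.8 ± 6.52 CPM in parenchyma at 3 weeks (SD, n = 11 and 12 libraries), and 109.1 ± 30.8 and 19.1 ± 4.08 CPM at 11 weeks (SD, n = 10 each). Its log2FC was 1.57 at 3 weeks and 2.49 at 11 weeks. In the joint fit of PBS and PBS.AIR libraries, with its own filter and scaling, the difference was -0.87 (limma, adjusted p = 0.00573). Of 31 ciliated cell genes 6 passed this test, and the list median was 1.57 at 3 weeks and 2.16 at 11 weeks. Of 7 mesothelial genes 5 passed, with list medians of -0.38 and 0.81. Mmp2, a matrix metalloproteinase gene, had 1.41 and 0.57 (difference in the joint fit 0.88, limma, adjusted p = 0.0174, or 0.088 without the 4 libraries).

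The compartment difference was also compared between PBS and HDM mice at 3 weeks. It differed for 3000 genes (17.3%, adjusted p under 0.05), and for 844 without the 4 PBS airway libraries. No HDM library was left out in that fit, although Nppa also spread widely in HDM airway (27.4 ± 54.2 CPM, SD, n = 10). How far this one-sided choice moved the contrast was not tested. Of the 1738 genes higher in airway at baseline 260 passed, 257 of them with the larger difference in PBS, and of the 332 higher in parenchyma 27 passed, all 27 with the larger difference in PBS. The share of the 2070 called genes that passed fell from 13.9% to 6.38% without the 4 libraries. The genes were chosen by their difference in PBS, which favours this direction. Adam8, a protease gene of leukocytes, had 56.1 ± 17.1 and 13.3 ± 4.94 CPM in PBS airway and parenchyma (SD, n = 11 and 12 libraries), and 193.5 ± 50.8 and 203.4 ± 36.6 CPM in HDM (SD, n = 10 each). Its log2FC was 2.07 in PBS and -0.10 in HDM (limma, adjusted p of the difference = 1.04e-06). Ccdc80, a matrix protein gene, had 1.70 and -0.22 (limma, adjusted p of the difference = 1.33e-05). Of 8 interstitial macrophage and monocyte genes 5 passed with all libraries in the fit, with list medians of 1.003 in PBS and -0.16 in HDM. The PBS median of this list was 0.68 without the 4 libraries. Of 16 alveolar type I genes 0 passed.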

How the data were processed

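The members were chosen by tissue, exposure and time in the labels, and the gene lists and tests with earlier results of these data known. Per the labels and the study's methods, the authors sequenced single reads, mapped them to mm10 with STAR 2.5.1b and quantified genes with RSEM 1.2.31 and kallisto 0.44.0. Which tool made the table is not given in the sources used here. They deposited 1 table of estimated counts (expected counts) per gene, not scaled for library size or length. Of the values above 0, 20.3% carried a decimal part, and all were rounded to whole numbers before testing. Counts of near-identical genes are uncertain. Of 43346 identifiers 42462 matched GENCODE M21 without version, which gave symbols and GRCm38 coordinates, and 23106 matched with it.

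Genes with the CPM equivalent (0.377) of 10 counts in at least 9 libraries were tested. After TMM scaling, limma 3.58.1 voom was fitted to the 43 libraries of 3 weeks in 4 groups with Benjamini-Hochberg adjustment. The 11 week contrast and the difference between times came from a fit of 43 PBS and PBS.AIR libraries, so both time contrasts use the same PBS libraries. Alternatives used edgeR 4.0.16 and DESeq2 1.42.0 in R 4.3.3. The fits were tested on simulated data. Library pairs within a group differed by a chi-square per degree of freedom of at least 10.5, above sampling noise, so none was taken as a repeat deposit of another. Depth limits genes near the filter most. Genes named are the list anchors, up to 3 called members per list, the 12 largest differences without overlap in each direction, and the 5 smallest adjusted p-values in each direction, for the main contrast and, among called genes, for each difference between contrasts. List members named beyond these were chosen after their values were seen.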

Additional observations from a re-analysis of the deposited data

Results flagged for a closer look

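For 20 genes called at baseline the compartment difference itself differed from that in another condition (limma, adjusted p under 0.05, values on the log2 scale, the 5 smallest adjusted p in each direction). The difference in PBS less that in HDM was positive for Adam8 (2.164), Ccdc80 (1.915), Acpp (1.707), Qpct (1.382) and Galm (1.1). It was negative for Fam3b (-2.372), Bex2 (-1.524), Rgs9 (-0.9342), Rad51ap1 (-0.8593) and Rapgef4 (-0.8519). Without the 4 libraries that stood apart, Rgs9, Rad51ap1 and Rapgef4 did not pass. Fam3b was 2.19 ± 0.953 CPM in HDM airway and 0.886 ± 0.327 CPM in HDM parenchyma (SD, n = 10 each), the opposite order to PBS.

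The difference at 3 weeks less that at 11 weeks was positive for Rnaset2b (2.26), B3gnt3 (0.9769), Mmp2 (0.8812), Igfbp4 (0.8537) and Nptxr (0.8023). It was negative for Ephx4 (-1.072), Cfap221 (-0.9627), Zfp474 (-0.9449), Cdhr3 (-0.8737) and Rsph10b (-0.831). Without the 4 libraries Mmp2 did not pass. Rnaset2b has a near-identical copy, Rnaset2a, and its counts are uncertain; 7 parenchyma libraries of 3 weeks had 1.504 to 15.9 CPM and 5 had 87.6 to 140.5 CPM.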

How the results depend on the processing

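Of the genes tested, 10.0% were called higher in airway (1738), and their count stayed within 1.5 times in the other settings, including 1341 without X21, X81, X161 and X181, but was 652 (5.63%) with CPM of at least 10 and 618 (3.556%) in a test against a log2FC of 1. Leaving out each library in turn gave 9.455% to 10.45%. Higher in parenchyma were 1.911% (332). This was 1.29% with the 23 PBS libraries alone, 1.256% with 22 of them and no replicate block, 1.162% with DESeq2, 1.047% with quality weights, 0.7772% with CPM of at least 10, 1.841% with no filter (514 genes), 0.005755% (1 gene) in the test against a log2FC of 1, 0.1981% (34 genes) without the 4 libraries and 1.31% to 2.264% leaving out each library. The share of calls higher in airway was 83.96%, and 97.53% without the 4. At 11 weeks CPM of at least 10 gave 7.313% and 1.916%, against 12.39% and 2.86%. The 17.26% that differed between PBS and HDM were 4.918% (844 genes) without the 4 libraries and 14.22% to 19.86% leaving out each. The 9.244% that differed between times were 12.19% without the 4 and 6.348% to 10.18% leaving out each. No HDM or PBS.AIR library was left out in these fits. The first component's difference (71.22) was 102.4 on all genes, 39.37 after variance stabilization and 68.06 to 73.51 leaving out each library. Causes were not tested, except that CPM of at least 10 tests fewer genes and no filter tests more.

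Neighbouring library codes correlated by -0.218 to 0.32, and 6 of 11 airway libraries correlated best with their neighbour, a hint from the data and not the design. The labels give no pairing, so the codes were not taken as pairs in the main test. These correlations cannot settle whether neighbouring codes came from the same mouse. A replicate block on them called 1726 genes higher in airway, against 1649 for the same 22 libraries without it, and 1.074% of genes higher in parenchyma, against 1.256%. Of the genes named, 3 uncalled ones changed sign: Tg with DESeq2 (0.008793) and from -0.2188 to 0.06116 leaving out each library, Bmp4 without the 4 libraries (0.008721), and Chrm3 with 22 libraries (0.068), with the block (0.07181), with 23 libraries (0.07227), DESeq2 (0.02936), its size factors (0.02501), edgeR (0.004214), no filter (0.05312) and from -0.06573 to 0.07526 leaving out each library.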
